A study of Mus musculus with 36 samples.

Results

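AP-1, Egr1 and Cebpb mRNAs were followed as 10 genes: Fos, Fosb, Fosl1 and Fosl2 of the FOS family, Jun, Junb and Jund of the JUN family, Atf3, Cebpb and Egr1. They were chosen by symbol, and all 10 of them were found among the 25239 genes of the P-body and cytoplasm count table and in both other count tables. AP-1 is a dimer of a JUN protein with a FOS, JUN or ATF protein that binds DNA through basic leucine zippers, and it drives growth, matrix remodelling and stress programs in fibroblasts. Egr1 is a zinc finger factor induced by serum and by ERK signalling. Cebpb is a basic leucine zipper factor of inflammation and of mesenchymal differentiation. Most of these genes are immediate early genes, whose transcripts appear within minutes of a stimulus and are then cleared quickly, in part through AU-rich elements of the 3′ UTR that recruit deadenylation and decapping factors. Transcript half-life was not measured in these libraries.

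P-bodies are cytoplasmic RNA and protein condensates that hold translationally repressed mRNA and the decapping machinery. The series holds 36 libraries, which fall into 16 groups. P-bodies were sorted as GFP-LSM14A particles, and an aliquot of the cytoplasm taken ahead of the sort served as the reference. This cytoplasm was the resuspended pellet of a fast spin of lysate cleared of nuclei. It still held the P-bodies and is neither whole cytoplasm nor whole-cell RNA. Every P-body value below is relative to it. The P-body and cytoplasm libraries came from v6.5 naive embryonic stem (ES) cells kept with LIF, a MEK inhibitor (PD0325901) and a GSK3 inhibitor (CHIR99021), from the same ES cells primed in activin A and bFGF, and from mouse embryonic fibroblasts (MEFs). These MEFs came from embryos that carry a doxycycline-inducible cassette of the reprogramming factors Oct4, Klf4, Sox2 and Myc and a Pou5f1-EGFP reporter, and they were profiled uninduced and at day 3 of reprogramming with either a control or a Nudt21 shRNA. A further ES cell line was an Ago2 knockout (KO) clone. Each of these 12 groups had 2 libraries. Polysome-bound and total RNA came from GFP-LSM14A ES cells with an FKBP12-F36V degron on both Ddx6 alleles. There were 3 libraries each for the cells given the dTAG-13 ligand for a few hours (DDX6 degron) and for cells of the same line without it (control). Before harvest both were treated briefly with cycloheximide, an inhibitor of translation. No polysome or total RNA value below comes from cells without that drug.

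Library totals were 6769731 to 12772246 reads in naive and primed ES cells and 19384742 to 31185874 reads in MEFs and day 3 cells, and depth and preparation cannot be told apart from cell type in comparisons of ES cells with MEFs. The cell states matched their markers: the summed level of 7 fibroblast markers was at least 35913 CPM (the count of a gene scaled to a common library total) in MEF cytoplasm and at most 3.16 CPM in naive cytoplasm, and 4 primed markers summed to 614 CPM or more in primed cytoplasm and to 81.3 CPM or less in naive cytoplasm. Nudt21 was 89.1 and 92.2 CPM in day 3 control cytoplasm and 5.74 and 4.99 CPM after the Nudt21 shRNA. Ago2 was 2.57 to 4.52 CPM in the KO libraries. Ddx6 RNA checks nothing here, since the degron removes the protein. The 2 naive cytoplasm libraries stood apart from each other, with an SD of log2 differences of 0.44 over genes of at least 10 CPM against 0.13 between the naive P-body libraries. Replicates of the Ago2 KO cytoplasm (0.62) and of the day 3 control P-bodies (0.40) also differed widely. MEF P-body replicate 2 held 86.9 CPM of 4 lung epithelium markers, against 5.89 CPM in replicate 1 and at most 0.183 CPM in MEF cytoplasm. The blood and macrophage markers summed to 30.5 CPM in that library and to 4.10 CPM or less in MEF cytoplasm. The study describes its sequenced samples as biological replicates, and the labels do not say which culture, plate or embryo each library came from, so that the p-values measure the spread between these libraries only.

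The AU pentamer ATTTA was present in the annotated 3′ UTR of 9 of the 10 genes, against 64.8% of 20948 protein-coding genes (longest GENCODE M21 transcript of each gene, GRCm38, the mm10 assembly). Fosl2 had 8 copies in a 3′ UTR of 4653 bases, Fos 4 copies in 815 bases, Jun 4 copies in 1233 bases and Atf3 3 copies in 1186 bases. Per kilobase, Fos (4.91 copies) and Junb (4.12) lay at the 92nd and 88.2nd percentile of all genes. The nonamer TTATTTATT, in which the pentamer sits at the centre, was found in Fos and Fosl2 and in 7.58% of all genes. Cebpb was the exception, with no ATTTA in 506 bases. The stretches of 30 bases below show pentamer sites of the Fos and Fosl2 3′ UTRs, the ones with a nonamer, and of the Jun and Junb 3′ UTRs, which follow Fos in pentamers per kilobase. They are printed 5′ to 3′ on the transcribed strand with each ATTTA in capitals.
Fos: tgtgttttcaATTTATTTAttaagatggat
Fosl2: attgacATTTAttttattATTTAttttaaa
Jun: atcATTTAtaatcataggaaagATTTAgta
Junb: atatatttgtgtATTTAacagggaggggag

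The Fos site lies at chr12:85477101-85477130 (plus strand), 643 bases past the stop codon, and the Fosl2 site at chr5:32156865-32156894 (plus strand), 3676 bases past it. The Jun site is at chr4:95049207-95049236 and the Junb site at chr8:84977126-84977155, both on the minus strand. Jun, Junb, Jund and Cebpb each have 1 exon, a structure of 4.82% of protein-coding genes, and Jund and Cebpb transcripts are 67.1% and 67.2% G and C, at the 99.8th percentile for both. In RefSeq promoter windows around the transcript start (GRCm38.p6), matched for 8 of the 10 genes, neither strand held a CArG box (1.63% of all windows), TGANTCA (7.81%), the AP-1 site, or TGACGTCA (1.79%), the cAMP response element. No match says only that these letters are not in these windows.

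**Figure D1:**
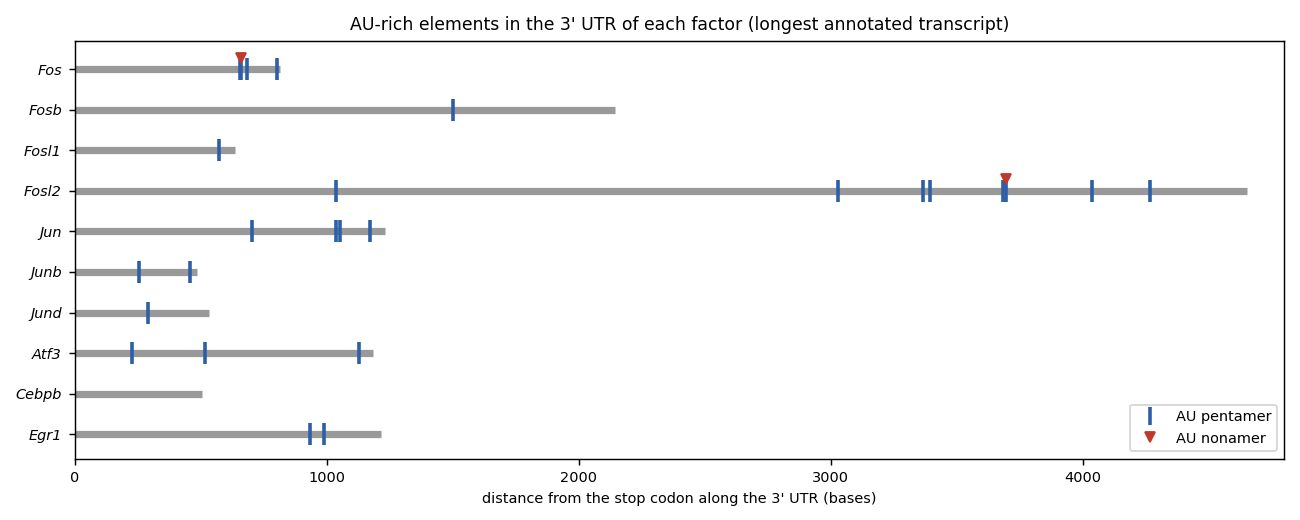
Positions of the AU pentamer (blue bars) and AU nonamer (red triangles) along the 3′ UTR of each gene (grey line), in bases from the stop codon of the longest annotated transcript. Fosl2 carries 8 pentamers over 4653 bases and Cebpb none.

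The cytoplasm libraries give the level of each mRNA in the pelleted fraction of the 5 cell states. A change in the amount of an mRNA in the cell and a shift between pelleted and soluble RNA cannot be told apart. Naive ES cells had little FOS family mRNA in this fraction: Fos was 2.04 and 2.11 CPM in their cytoplasm, Fosl2 0.470 and 0.243 CPM, and Fosl1 had no read. Jun, which encodes the main partner of FOS proteins, was at 3.29 and 7.46 CPM and Egr1 at 0.235 and 0.649 CPM. Jund, the JUN family member that is made most constitutively, was at 191 and 82.9 CPM in the same libraries. On the per-length scale (reads per kilobase of the longest transcript, scaled as CPM), Jund was the highest of the 10 in naive cytoplasm (82.0 ± 45.6, SD, n = 2), followed by Cebpb (13.5 ± 6.41) and Atf3 (10.9 ± 3.31), which did not differ beyond their spread. On this scale Jund was also first in primed cytoplasm (60.1 ± 3.99), ahead of Jun (19.0 ± 0.953) and Junb (11.3 ± 0.0256). Junb was first in MEF cytoplasm (49.5 ± 0.443), followed by Jun (45.7 ± 1.83) and Jund (31.9 ± 0.541), and in day 3 control cytoplasm (43.0 ± 0.367), followed by Jund (29.8 ± 3.87) and Jun (27.9 ± 1.96), of which the last pair did not differ beyond its spread. These places depend on the transcript taken for the length. With the median transcript length of each gene, Fosl1 was 38.9 in MEF cytoplasm (10.4 with the longest), above Jund, and Fos was 56.9 in day 3 control cytoplasm (22.0 with the longest), second to Junb.

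In primed ES cytoplasm, 3 of 8 tested members were higher than in naive cytoplasm and none lower, against a background of 43.8% of 16125 genes called, 21.6% higher and 22.1% lower (edgeR quasi-likelihood test, TMM scaling, Benjamini-Hochberg adjusted p under 0.05). Jun was 62.8 and 58.5 CPM in primed cytoplasm, both far above the naive libraries. The log2 fold change of Jun was 3.31 ± 0.35 (SE, n = 2 per group, edgeR adjusted p = 0.00128), or 9.90-fold. Egr1 was 3.55 and 7.11 CPM and rose by 3.38 ± 0.63 on the log2 scale (edgeR adjusted p = 0.0082). Fosl2, at 2.07 and 1.37 CPM, was higher by 2.02 ± 0.64 (edgeR adjusted p = 0.047), with 34 reads over the 4 libraries. The call of Fosl2 was lost without naive cytoplasm replicate 2 or either primed cytoplasm library (edgeR adjusted p = 0.0639 to 0.253), that of Egr1 without primed cytoplasm replicate 2 (0.0778), and 6 members were called without naive cytoplasm replicate 2. Of the genes that read out ERK signalling, 7 of 12 were higher in primed cytoplasm and none lower (median log2 fold change 2.03, against -0.00 over all genes tested). These were led by the ERK phosphatases Dusp6 (5.86 ± 0.56, edgeR adjusted p = 0.00098) and Dusp4 (4.69 ± 0.48, edgeR adjusted p = 0.0012). The naive medium holds a MEK inhibitor and the primed medium bFGF, so that medium and pluripotent state cannot be told apart.

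In MEF cytoplasm, 7 of the 10 members were higher and 1 lower than in naive cytoplasm, where 71.8% of 16871 genes were called, 35.9% higher and 36% lower. Fosl2 was 95.3 and 90.7 CPM (log2 fold change 8.24 ± 0.24, edgeR adjusted p = 2.7e-05), Egr1 was 66.0 and 67.4 CPM (7.48 ± 0.29, edgeR adjusted p = 4.0e-05) and Jun was 150 and 141 CPM (5.02 ± 0.33, edgeR adjusted p = 0.00015). Junb, at 88.9 and 90.1 CPM against 11.4 and 2.92 CPM, was higher by 3.87 ± 0.57 (edgeR adjusted p = 0.0022). Fosl1, the FOS member known from migrating and transformed cells, had 1184 reads over both MEF libraries and none in naive cytoplasm, which makes it at least 161-fold higher when the naive group is set at a floor of 3 reads. Fos, at 6.19 and 5.58 CPM, was higher by 1.75 ± 0.27 (edgeR adjusted p = 0.00255), the smallest of these differences. Fosb was rare everywhere: its call rests on 21 reads in MEF cytoplasm and 1 in naive cytoplasm (ratio of CPM 8.60, 95% exact interval 1.38 to 356, counting error only), and it was lost without naive cytoplasm replicate 1 or either MEF cytoplasm library. Atf3, a stress-induced partner of JUN proteins, went the other way, from 26.3 and 17.0 CPM in naive to 4.75 and 6.60 CPM in MEF cytoplasm (fell by 1.69 on the log2 scale, SE 0.31, edgeR adjusted p = 0.0053). Jund, with 52.7 and 53.9 CPM in MEF cytoplasm, had a log2 fold change of -1.12 ± 0.40 that did not pass (edgeR adjusted p = 0.051). In bulk RNA, fewer cells that express a gene and less of its RNA per cell cannot be told apart.

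**Figure D2:**
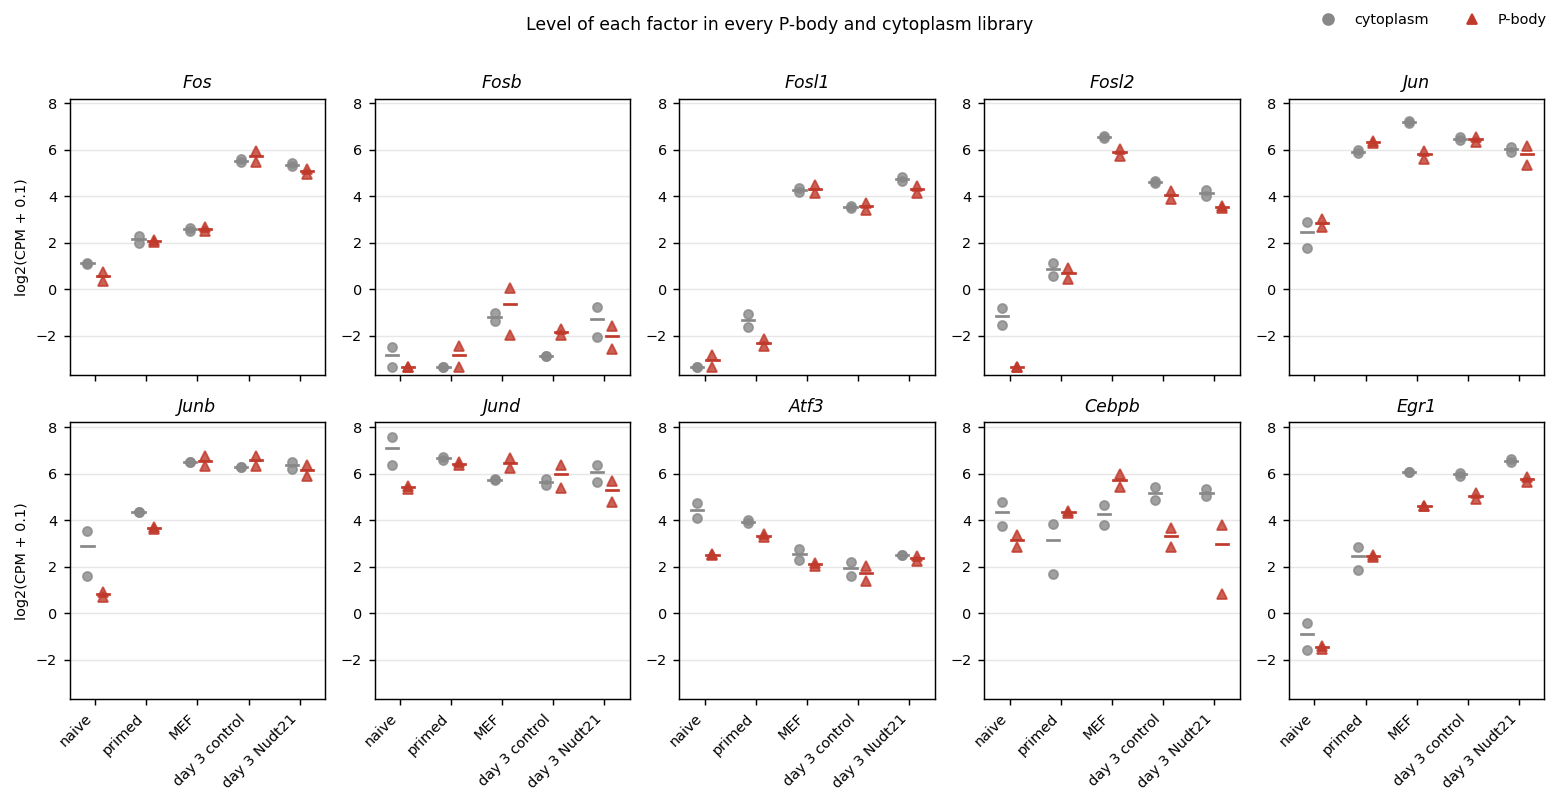
Level of each gene, as log2(CPM + 0.1), in each P-body library (red triangles) and cytoplasm library (grey circles) of 5 cell states, with 2 libraries per group and the group mean as a short line. Fosl1, Fosl2, Junb and Egr1 are high in MEF and day 3 libraries and low in naive ones, and Fos is highest in the day 3 libraries.

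By day 3 of reprogramming, FOS family members had moved in opposite directions. The induction medium held LIF, ascorbic acid, doxycycline and a larger share of serum than the growth medium of the MEFs. Medium and reprogramming therefore cannot be told apart in this comparison. All 10 members were called between day 3 control and MEF cytoplasm, 2 higher and 8 lower, where 69.3% of 16108 genes were called, 35.5% higher and 33.7% lower. Fos was 48.2 and 44.5 CPM at day 3 against 6.19 and 5.58 CPM in MEFs (2.82 ± 0.12, edgeR adjusted p = 5.0e-12), a 7.04-fold rise. Fosl2 moved in the opposite direction, from 95.3 and 90.7 CPM to 25.1 and 23.4 CPM (4.29-fold lower, edgeR adjusted p = 1.92e-12). Fosl1 (log2 fold change -0.88 ± 0.13) and Jun (-0.87 ± 0.07) were lower in both day 3 libraries than in both MEF libraries. Junb (-0.36 ± 0.07), Jund (-0.26 ± 0.09) and Egr1 (-0.26 ± 0.07) fell by smaller amounts, and Egr1 remained at 60.3 and 64.6 CPM. Cebpb rose from 13.5 and 25.1 CPM to 28.9 and 42.2 CPM (0.72 ± 0.21, edgeR adjusted p = 0.0063). The calls of Egr1, Jund and Atf3 were lost without day 3 control cytoplasm replicate 1, that of Atf3 also without MEF cytoplasm replicate 2, and that of Cebpb without day 3 control cytoplasm replicate 2. Fosb had 21 reads in MEF and 2 in day 3 cytoplasm (ratio 9.03, exact 95% interval 2.21 to 79.4), and its call was lost without MEF cytoplasm replicate 2.

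The ERK readout genes rose between MEFs and day 3: 11 of 12 were higher and none lower (median log2 fold change 1.17), with the ERK-responsive factor Etv5 at 2.50 ± 0.07 (edgeR adjusted p = 3.3e-14) and Dusp6 at 1.81 ± 0.07 (edgeR adjusted p = 1.7e-12). Over all genes, 35.5% were higher and 33.7% lower at day 3. Of 15 genes known as AP-1 targets in fibroblasts, 11 were lower and 4 higher at day 3, among them Timp1, an inhibitor of matrix proteases (fell by 1.32 on the log2 scale, SE 0.05). The cell cycle gene Ccnd1 of the same list rose by 2.79 ± 0.07. In the comparison of MEF with naive cytoplasm, 13 of these 15 genes were higher and none lower, where 35.9% of all genes were higher and 36% lower. Fibroblast markers moved with these lists, since their summed level was 6484 to 6582 CPM at day 3 against 35913 CPM or more in MEFs, and the part of that change in the AP-1 values was not tested.

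The Nudt21 knockdown addresses alternative polyadenylation, because Nudt21 encodes a subunit of the factor that favours distal poly(A) sites. In day 3 cytoplasm, 2 members were higher and 2 lower after the knockdown, where 49.6% of 15990 genes were called, 24.6% higher and 25% lower. Fosl1 was 25.2 and 28.4 CPM against 11.4 and 12.1 CPM in control (1.17 ± 0.12, edgeR adjusted p = 4.8e-07). Egr1 was 90.5 and 97.8 CPM against 60.3 and 64.6 CPM (0.58 ± 0.08, edgeR adjusted p = 1.1e-05). Fosl2, which has the longest 3′ UTR of the 10, was 16.3 and 19.0 CPM against 25.1 and 23.4 CPM (-0.48 ± 0.12, edgeR adjusted p = 0.00295), and Jun was 59.9 and 70.2 CPM against 84.6 and 93.4 CPM (-0.47 ± 0.09, edgeR adjusted p = 0.000255). The 5 blood and macrophage markers summed to 102 to 105 CPM in the knockdown cytoplasm and to 11.9 to 16.0 CPM in control cytoplasm. Nearly all of this was Cd68, at 105 and 102 CPM against 11.3 and 14.9 CPM. Cd68 was also 24.8 and 52.1 CPM in naive ES cytoplasm, so this sum does not single out blood cells. The summed fibroblast markers were 1999 to 2010 CPM against 6484 to 6582 CPM (6 of 7 lower, median log2 fold change -1.63). The naive ES markers were 962 to 1104 CPM against 490.3 to 490.9 CPM. The part of these markers in the values of Fosl2, Jun, Fosl1 and Egr1 was not tested.

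**Figure D3:**
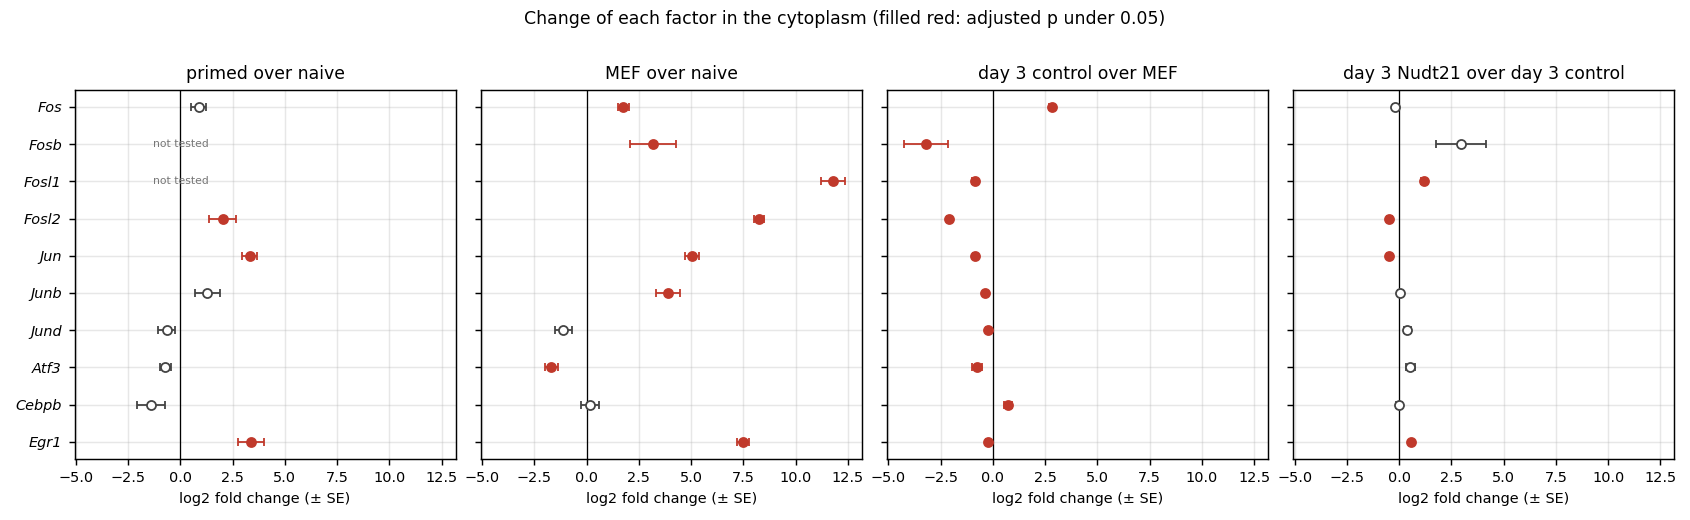
Log2 fold change of each gene between cytoplasm libraries in 4 comparisons, with bars of ± SE and filled red points for adjusted p under 0.05 (edgeR, n = 2 per group). The FOS members and Egr1 lie to the right in MEFs over naive cells, while Fos lies to the right and Fosl2 to the left at day 3 over MEFs. The fitted values of Fosl1 over naive cells and of Fosb rest on 0 to 2 reads in 1 of the groups and are not bounds.

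P-body enrichment was measured within each cell state as P-body over cytoplasm. In naive ES cells, 2 of 7 tested members were called and both were lower in P-bodies, where 38% of 15630 genes were called, 22.6% higher and 15.4% lower. Atf3 was 5.66 and 5.57 CPM in P-bodies and 26.3 and 17.0 CPM in the cytoplasm (log2 fold change -1.73 ± 0.29, edgeR adjusted p = 0.0080). Jund was 40.9 and 43.9 CPM against 191 and 82.9 CPM (-1.48 ± 0.41, edgeR adjusted p = 0.039). Neither P-body library reached the lower cytoplasm library for either gene. Junb, at 1.76 and 1.51 against 11.4 and 2.92 CPM (-1.93 ± 0.72, edgeR adjusted p = 0.088), and Cebpb, at 7.15 and 10.3 against 27.1 and 13.5 CPM (-1.01 ± 0.41, edgeR adjusted p = 0.11), did not pass, though their groups did not overlap. Fos, at 1.58 and 1.19 against 2.04 and 2.11 CPM, was also lower without overlap (edgeR adjusted p = 0.50). Jun went the other way, at 6.41 and 8.04 against 3.29 and 7.46 CPM (0.66 ± 0.41, edgeR adjusted p = 0.25). Its groups were separate only after TMM scaling. Fosl2 had 9 reads in the cytoplasm and none in P-bodies and was not tested. The count fell to 0 without either P-body library and rose to 5 without cytoplasm replicate 2, and it was 4 with DESeq2.

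Of 42 other short-lived transcripts, 39 were tested in the same naive libraries, with 9 higher and 5 lower in P-bodies (median log2 fold change -0.05, against -0.06 over all genes). These counts are near the background of 22.6% higher and 15.4% lower given above. The called genes with the largest changes were Nfkbia, the inhibitor of NF-kB (3.72 ± 0.34, edgeR adjusted p = 0.0011), Klf6 (2.74 ± 0.11, edgeR adjusted p = 0.00041), Zfp36l1, which encodes a protein that binds AU-rich elements (2.73 ± 0.19, edgeR adjusted p = 0.00054), and Errfi1, a feedback inhibitor of EGF receptor signalling (2.48 ± 0.13, edgeR adjusted p = 0.00041). Of 20 tested relatives of the AP-1, EGR and C/EBP families, 5 were higher and 4 lower (median -0.11). Atf2 (2.17 ± 0.22) and Cebpg (1.58 ± 0.14) were among the higher ones, and Atf4 (-0.77 ± 0.13), Jdp2 (-0.83 ± 0.21), Mafa (-0.84 ± 0.24) and Batf2 (-3.18 ± 0.92) were the lower ones, the last 4 named after their values were seen.

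In primed ES cells, 4 of 8 tested members were called, 2 in each direction, against a background of 50.7% of 16177 genes, 26.5% higher and 24.2% lower. Cebpb was 19.7 and 21.0 CPM in P-bodies and 3.10 and 14.2 CPM in the cytoplasm (1.21 ± 0.36, edgeR adjusted p = 0.014). The P-body replicates were close to each other, and the cytoplasm replicates were not. Jun, at 77.6 and 82.6 against 62.8 and 58.5 CPM, was higher by 0.44 ± 0.08 (edgeR adjusted p = 0.00085), or 1.35-fold. Junb was 12.2 and 13 CPM in P-bodies and 20.4 and 20.5 CPM in the cytoplasm (-0.66 ± 0.14, edgeR adjusted p = 0.0015), and Atf3 was 9.50 and 10.5 against 14.6 and 15.7 CPM (-0.57 ± 0.16, edgeR adjusted p = 0.0091). All 4 genes had P-body libraries outside the range of the cytoplasm libraries, as had Jund, which was not called, and Fosl1, which was not tested. The share of all genes with such a separation was not counted in any comparison. No member was called when all groups of the table were fitted at once, and 2 were called with DESeq2.

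In MEF P-bodies 2 members were higher, 3 were lower, and the other 5 did not pass, where 55.3% of 16198 genes were called, 26.6% higher and 28.7% lower. Cebpb was 42.6 and 63.0 CPM in P-bodies and 13.5 and 25.1 CPM in the cytoplasm (1.43 ± 0.27, edgeR adjusted p = 0.0015), a 2.70-fold enrichment. Jund was 75.4 and 101 CPM against 52.7 and 53.9 CPM (0.71 ± 0.14, edgeR adjusted p = 0.0017). Egr1 was 23.9 and 24.3 CPM in P-bodies and 66.0 and 67.4 CPM in the cytoplasm (-1.49 ± 0.10, edgeR adjusted p = 5.7e-06). Jun was 62.0 and 49.3 CPM against 150 and 141 CPM (-1.41 ± 0.12, edgeR adjusted p = 1.6e-05), and Fosl2 was 65.9 and 52.8 CPM against 95.3 and 90.7 CPM (-0.67 ± 0.12, edgeR adjusted p = 0.0012). None of these 5 genes overlapped between the fractions, nor did Atf3, which was not called. Fos (5.53 and 6.34 against 6.19 and 5.58 CPM), Fosl1 (17.6 and 22.0 against 20.7 and 17.9 CPM) and Junb (106 and 79.3 against 88.9 and 90.1 CPM) overlapped between the fractions. The count was 6 without P-body replicate 2, the library with lung epithelium and blood markers, and 5 without any other library.

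At day 3, no member passed in control cells, where 0.646% of 15786 genes were called, 0.196% higher and 0.45% lower. DESeq2 called 2 members. Over the table edgeR called 102 genes, with 3899 at an unadjusted p under 0.05. The member count was 5 without P-body replicate 1, 3 without P-body replicate 2 and 1 without either cytoplasm library. Egr1 was 36 and 30.2 CPM in P-bodies and 60.3 and 64.6 CPM in the cytoplasm (-0.90 ± 0.15, edgeR adjusted p = 0.052). Cebpb was 12.4 and 7.17 CPM against 28.9 and 42.2 CPM (-1.84 ± 0.31, edgeR adjusted p = 0.054). The P-body libraries lay below both cytoplasm libraries for each of these genes, and also for Fosl2 (edgeR adjusted p = 0.176). They lay above both for Junb, at 80.1 and 109 against 77.3 and 78.2 CPM (edgeR adjusted p = 0.356). The same held for Fosb, with 10 reads in the fit (edgeR adjusted p = 0.423). The share of all genes separated in either direction was not counted. After Nudt21 knockdown, 3 members were lower and none higher (background 21.9% of 15995 genes, 9.04% higher and 12.8% lower). Cebpb was 1.66 and 13.8 CPM against 32.3 and 40.3 CPM (-2.22 ± 0.57, edgeR adjusted p = 0.020), and its P-body replicates lay far apart. Egr1 was 49.7 and 58.3 CPM against 90.5 and 97.8 CPM (-0.79 ± 0.11, edgeR adjusted p = 0.0011), and Fosl2 was 11.2 and 12 CPM against 16.3 and 19.0 CPM (-0.59 ± 0.15, edgeR adjusted p = 0.020). The knockdown count was 1 without Nudt21 cytoplasm replicate 2 and 8 without Nudt21 P-body replicate 2. Of the ERK readout genes, 7 of 12 were lower and none higher in the knockdown P-bodies (median log2 fold change -0.43), among them Spred1, an inhibitor of RAS signalling (-1.15 ± 0.11, edgeR adjusted p = 0.00022).

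**Figure D4:**
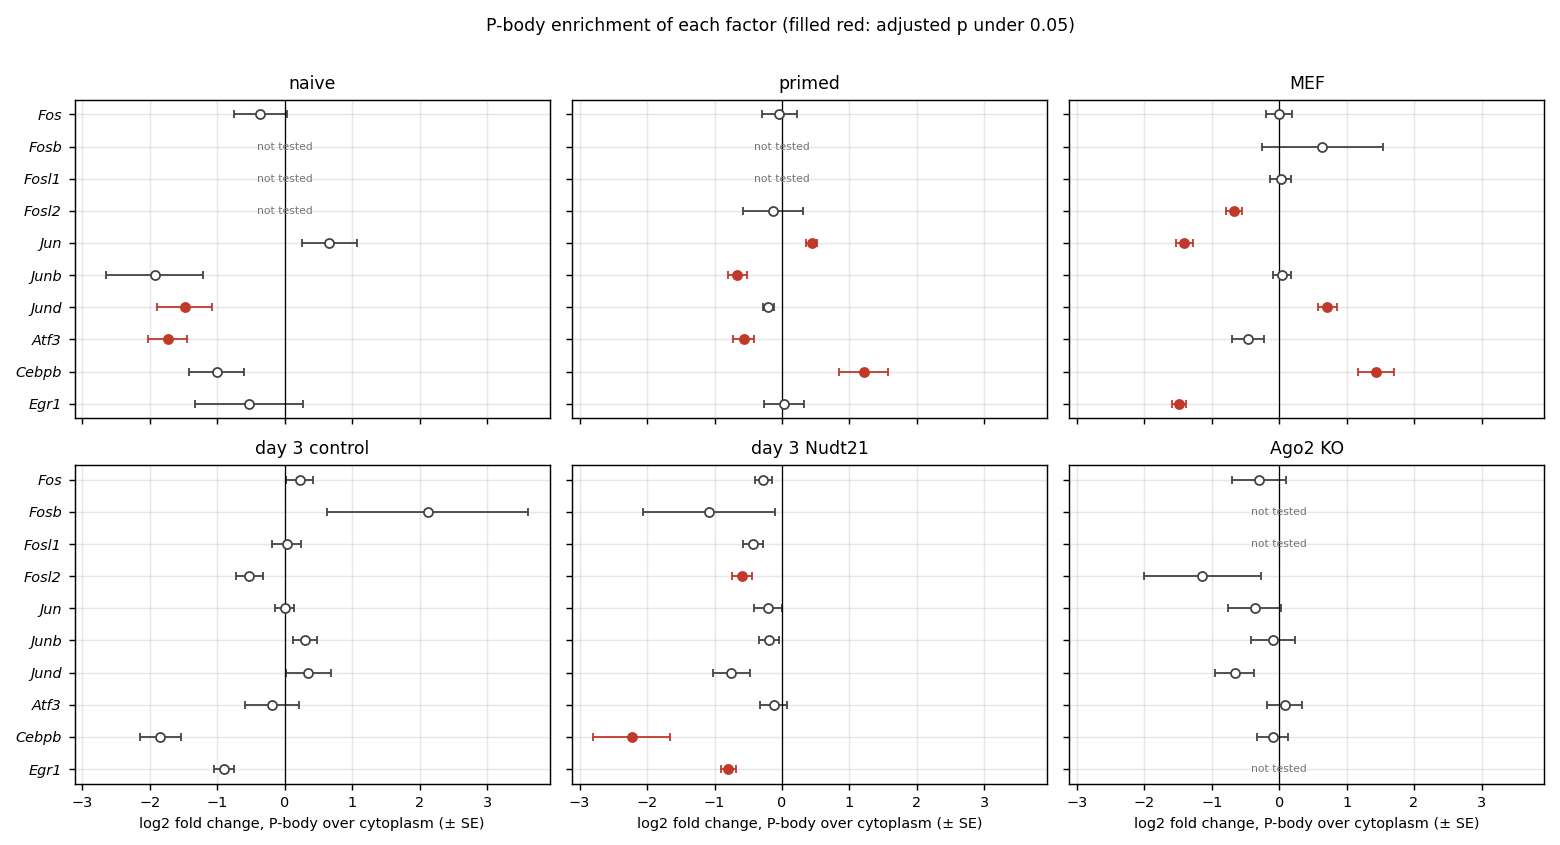
P-body enrichment of each gene in 6 cell states, as log2 fold change of P-body over cytoplasm with bars of ± SE (edgeR, n = 2 libraries per group) and filled red points for adjusted p under 0.05. Cebpb lies at 1.21 in primed cells and 1.43 in MEFs, and at -1.84 and -2.22 in the day 3 cells.

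Whether enrichment itself differed between cell states was tested as an interaction contrast over 4 groups. The enrichment of Cebpb in primed cells exceeded that in naive cells by 2.37 ± 0.76 on the log2 scale (edgeR adjusted p = 0.048), that in MEFs exceeded naive cells by 2.62 ± 0.56 (edgeR adjusted p = 0.0039), and the difference of day 3 control cells from MEFs was -3.23 ± 0.47 (edgeR adjusted p = 0.0026). These contrasts share their naive and MEF libraries. Primed against naive, 3 of 8 tested members differed, all higher (background 25.3% of 17199 genes, 11.4% higher and 13.9% lower), with Jund at 1.42 ± 0.45 (edgeR adjusted p = 0.049) and Atf3 at 1.30 ± 0.34 (edgeR adjusted p = 0.022). The count was 0 without either naive P-body library, either primed P-body library or primed cytoplasm replicate 1, 1 without primed cytoplasm replicate 2 and 6 without naive cytoplasm replicate 2.

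MEFs against naive cells, 5 members were more enriched and 1 less, where 41.3% of 18143 genes differed, 19.8% higher and 21.5% lower. Jund (2.38 ± 0.46, edgeR adjusted p = 0.00225), Junb (2.15 ± 0.70, edgeR adjusted p = 0.034) and Atf3 (1.46 ± 0.39, edgeR adjusted p = 0.013) moved with Cebpb, while Jun was less enriched in MEFs (-1.88 ± 0.38, edgeR adjusted p = 0.0031). Fosl2 was called too (edgeR adjusted p = 0.032), but its naive P-body group had no read, so that its fitted value depends on the prior count. The count was 3 without either naive P-body library or without MEF cytoplasm replicate 1. The call of Junb was lost without any 1 library other than naive cytoplasm replicate 2, with a value of 0.82 (edgeR adjusted p = 0.147) without naive cytoplasm replicate 1. That of Atf3 was lost without either naive P-body library, either MEF P-body library or MEF cytoplasm replicate 1. Day 3 control against MEF, 3 of 10 members differed (background 14.7% of 17488 genes, 9.59% higher and 5.13% lower): besides Cebpb, Jun was higher by 1.44 ± 0.21 (edgeR adjusted p = 0.0025) and Egr1 by 0.63 ± 0.18 (edgeR adjusted p = 0.038). The call of Egr1 was lost without any 1 of the MEF libraries or either day 3 control cytoplasm library. Between Nudt21 knockdown and day 3 control, edgeR called none of the 10 and DESeq2 none, where 0.0118% of 16973 genes were called and 819 genes had an unadjusted p under 0.05.

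In Ago2 KO cells, which lack the Argonaute protein that carries most microRNAs in ES cells, none of 7 tested members was called by edgeR or DESeq2 between fractions, where 6.51% of 16808 genes were called, 5.47% higher and 1.05% lower, and 4031 had an unadjusted p under 0.05. Atf3 was 18.9 and 17.8 CPM in KO P-bodies and 20.8 and 13.4 CPM in KO cytoplasm. Cebpb was 20.4 and 19.0 CPM against 21.4 and 19.9 CPM. On this scale the fractions of the KO line overlapped for both genes, though for Cebpb no longer after TMM scaling. The naive fractions in the other table did not overlap for either gene. Cebpb was not called there (edgeR adjusted p = 0.11), and its naive cytoplasm replicates were 27.1 and 13.5 CPM. The tables come from different counting methods and the KO line is 1 clone, so no test was made between them. Jund was 87.7 and 133 CPM in KO P-bodies and 175 and 166 CPM in KO cytoplasm. With the replicate number as a block, Jund was called lower in KO P-bodies (-0.69, edgeR adjusted p = 0.0301, against 0.203 without the block), and 4178 genes were called instead of 1095. The wide gap between KO replicates given above limits what could be detected.

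Polysome-bound over total RNA compares each mRNA with the other genes of the same libraries, here in ES cells of naive type (naive markers at least 3546 CPM summed, primed markers at most 55.9 CPM). Libraries were scaled to each other, so the ratio gives no absolute share on ribosomes. The polysome libraries hold RNA of all ribosome-containing gradient fractions, pooled. In control cells 4 of 10 members were called, 2 in each direction, where 42.9% of 15411 genes were called, 18.8% higher and 24.1% lower. Junb was 3.36, 3.36 and 2.86 CPM in polysomes and 4.84, 5.35 and 4.20 CPM in total RNA (-0.75 ± 0.16, n = 3 per group, edgeR adjusted p = 0.0011). Jun was 7.31, 5.24 and 5.03 against 6.41, 6.91 and 8.06 CPM (-0.45 ± 0.16, edgeR adjusted p = 0.030), with overlap between the groups. Cebpb was 11.6, 13.3 and 11.8 against 8.80, 8.71 and 9.03 CPM (0.30 ± 0.11, edgeR adjusted p = 0.036), and Jund was 130, 130 and 125 against 83.9, 83.2 and 117 CPM (0.27 ± 0.10, edgeR adjusted p = 0.043). The count was 1 without control polysome replicate 2 or 3 and 2 without control total replicate 1 or 2. Of the other short-lived mRNAs, 13 of 39 tested were lower on polysomes and 3 higher, with the clock gene Per1 at -1.28 ± 0.10 and the polo-like kinase Plk2 at -0.79 ± 0.09.

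With DDX6 removed, the polysome over total contrast called 3 of 9 tested members (background 50.9% of 15638 genes, 24% higher and 26.8% lower). Jun (-0.73 ± 0.11, edgeR adjusted p = 8.0e-06) and Junb (-0.62 ± 0.14, edgeR adjusted p = 0.000975) were again lower on polysomes, and Atf3 was higher (0.36 ± 0.13, edgeR adjusted p = 0.021). The change in occupancy between degron and control cells was called for no member and for 0 of 16345 genes by edgeR, with 844 genes at an unadjusted p under 0.05 and 4 genes called by DESeq2.

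DDX6 is the helicase that P-body assembly and the repression of decay targets need. In the comparison of degron with control total RNA, 2 members were higher, where 3.31% of 15380 genes were called, 1.24% higher and 2.07% lower. Atf3 was 5.69, 4.96 and 4.88 CPM in degron and 3.18, 2.46 and 3.29 CPM in control total RNA (0.80 ± 0.16, edgeR adjusted p = 0.025), a 1.74-fold rise. Cebpb was 13.5, 15.4 and 12.7 CPM against 8.80, 8.71 and 9.03 CPM (0.65 ± 0.10, edgeR adjusted p = 0.0081), 1.57-fold. All degron libraries lay above all control libraries for both genes, and also for Fosl2 and Jun, which were not called (edgeR adjusted p = 0.433 and 0.191). The share of all genes separated in this way was not counted. In polysome RNA, 1 of 9 members was called (background 4.26% of 15625 genes, 1.91% higher and 2.36% lower): Atf3 was 7.34, 7.02 and 8.28 CPM against 4.19, 3.87 and 4.13 CPM (0.89 ± 0.13, edgeR adjusted p = 0.0018). Cebpb was 14.8, 15.8 and 15.5 against 11.6, 13.3 and 11.8 CPM there (0.31 ± 0.09, edgeR adjusted p = 0.057). The total RNA count was 0 without DDX6 degron total replicate 1 or 2, 1 without DDX6 degron total replicate 3 or control total replicate 1 or 2, and 4 without control total replicate 3. With a replicate block it was 1, and 82 genes were called over all genes instead of 509. The polysome count was 1 without any 1 library.

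Relatives of the members were called beside Atf3. Of 25 other AP-1, EGR and C/EBP family genes, 19 were tested in total RNA, with 4 higher and none lower after DDX6 removal. Over all genes, 1.24% were higher and 2.07% lower there. Ddit3, the stress factor CHOP, was higher by 0.82 ± 0.08 (edgeR adjusted p = 0.00073), Jdp2, a repressor that pairs with JUN, by 0.41 ± 0.08 (edgeR adjusted p = 0.022), and Atf4, the activator of the amino acid and unfolded protein responses, by 0.30 ± 0.05 (edgeR adjusted p = 0.010). The chaperone Hspa5 rose by 0.58 ± 0.06 (edgeR adjusted p = 0.00073), 1 of 3 heat and handling stress genes of 7 that were higher. In P-bodies, by comparison, 6 of these 7 stress genes were lower and 1 higher in primed cells, with the heat shock gene Hspa1a at -1.57 ± 0.16, and 2 were lower and 1 higher in naive cells, where Hspa1a was at -1.46 ± 0.19. The shares over all genes were 24.2% lower and 26.5% higher in primed P-bodies, and 15.4% lower and 22.6% higher in naive P-bodies. The part of the stress genes in the Atf3 values was not tested. Of 12 upstream regulators of the members (MAP kinases and their activators, Srf, Elk factors and Creb1), none was called after DDX6 removal, while 8 were lower and 2 higher in MEF P-bodies. In MEF P-bodies 28.7% of all genes were lower and 26.6% higher. The ligand was given to the degron cells alone, so that effects of the ligand and of DDX6 loss cannot be told apart.

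**Figure D5:**
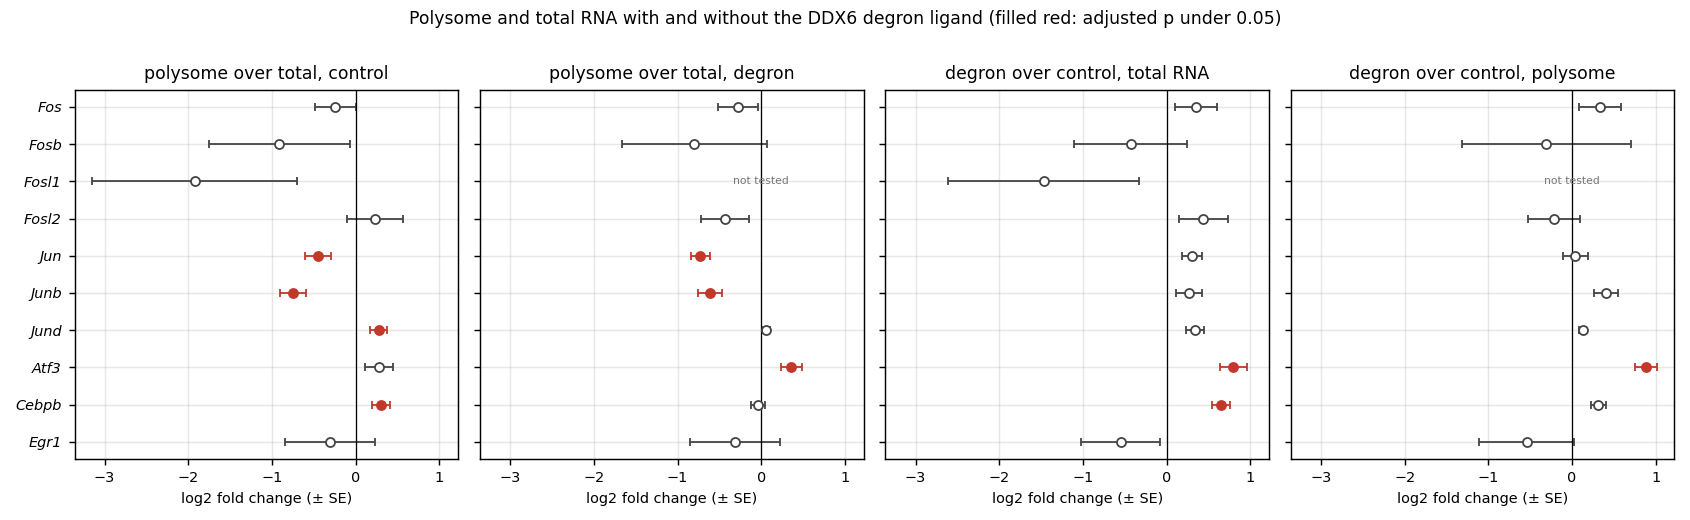
Log2 fold change of each gene for polysome over total RNA in control and DDX6 degron cells and for degron over control cells in total and polysome RNA, with bars of ± SE and filled red points for adjusted p under 0.05 (edgeR, n = 3 per group). Atf3 lies at 0.80 in total and 0.89 in polysome RNA after DDX6 removal.

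Across the 20 P-body and cytoplasm libraries of ES cells, MEFs and day 3 cells, the members differed in pattern. The Pearson correlation of log2 CPM was 0.94 between Fosl1 and Egr1 and -0.40 between Jund and Egr1, the highest and lowest among pairs of the 8 members with a mean of at least 10 CPM. The points share cell states, depth and fractions, so these values only describe the libraries. The 3 genes most like Fosl2 among 10267 genes were Col1a1 (r = 0.99), Lox (0.99) and Lrrc32 (0.99), of which Col1a1 encodes fibrillar collagen and Lox a collagen crosslinking enzyme. Fosl1 was closest to Sdc2 (0.99), Nav3 (0.99) and Fbxo4 (0.99), and Fos to the genes Ecscr (0.99), Cd34 (0.99) and Gstt3 (0.98). Jun was nearest to Armcx2 (0.97), Thbs3 (0.97) and Nfatc4 (0.96), Junb to Ltbr (0.97), Capn2 (0.97) and Fkbp10 (0.97), and Egr1 to Vopp1 (0.99), Ptpn9 (0.98) and Lats2 (0.98). Jund had looser neighbours, Morn4 (0.79), Bmyc (0.78) and Hes1 (0.76), as had Cebpb with Ppp1r14b (0.87), Trim7 (0.85) and Mprip (0.84).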

How the data were processed

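P-body-seq libraries were made with Smart-seq v4. The authors aligned read pairs to mm10 with HISAT2 and deposited estimated counts per refGene gene from featureCounts, of which 17.6% to 25.7% per library were not whole. The polysome, total RNA and Ago2 KO tables hold expected counts that the authors deposited from salmon, and the kit and annotation release of the Ago2 KO libraries are not given in the sources used here. The 10 comparison tables of the authors (log2 fold changes, p-values) were not used.

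Counts were rounded. Genes with at least 10 reads summed over a fit were tested with the edgeR (4.0.16, R 4.3.3) quasi-likelihood test after TMM scaling, two-sided, and called at a Benjamini-Hochberg adjusted p under 0.05 over all genes. SE were derived from the test statistic. Only groups of a comparison entered its fit. Scripts were tested on simulated data. CPM of single libraries use the library total of 6769731 to 31185874 reads (P-body and cytoplasm), 13308782 to 29362195 (polysome and total) and 15624401 to 17486268 (Ago2 KO). Floors and intervals cover counting error only. Figures used matplotlib 3.10.9.

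Alternatives were DESeq2 (1.42.0), its size factors, filterByExpr, no filter, a replicate block, all groups in 1 fit, and each library left out. All members were named, and from each list at most 4 called genes of at least 10 CPM with the largest change. An exception was the relatives lower in naive P-bodies, which were named after their values were seen. Members and lists were chosen with earlier results of these data known.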

Additional observations from a re-analysis of the deposited data

Results flagged for a closer look

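In 12 cases the P-body enrichment of a gene differed between cell states by the interaction test of edgeR. Primed against naive ES cells, the difference in log2 enrichment was 1.42 for Jund, 1.30 for Atf3 and 2.37 for Cebpb. MEFs against naive ES cells, it was 5.04 for Fosl2, with no read in the naive P-body group, 2.15 for Junb, 2.38 for Jund, 1.46 for Atf3, 2.62 for Cebpb and -1.88 for Jun. Day 3 control against MEFs, it was 1.44 for Jun, 0.63 for Egr1 and -3.23 for Cebpb. No group had the 4 samples that a search for single outlying libraries needs.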

How the results depend on the processing

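Counts of called members moved as follows. With DESeq2 they were 4 in naive P-bodies, 2 in primed P-bodies and 2 in day 3 control P-bodies. With all groups in 1 fit they were 4 in naive, 0 in primed, 3 in MEF and 3 in day 3 control P-bodies, 7 for primed against naive cytoplasm and 6 for day 3 control against MEF cytoplasm. With no filter they were 2 in day 3 control and 5 in Nudt21 P-bodies, 1 for the Nudt21 enrichment difference and 2 for DDX6 degron against control polysomes. Primed against naive enrichment gave 1 with DESeq2 size factors and 1 with filterByExpr. The cause of these moves was not tested.

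The labels do not say what a replicate number marks, and 2 pairs per P-body group are too few to settle a pairing from the data. The correlation of same-numbered P-body and cytoplasm deviations was -0.05 in naive, 0.08 in primed, -0.01 in MEF, 0.15 in day 3 control, 0.18 in Nudt21 and 0.62 in Ago2 KO cells, a hint of pairing in the last. With a replicate block, 2 members were called in day 3 control P-bodies, 5 in Nudt21 P-bodies, 1 in Ago2 KO P-bodies, 1 for DDX6 degron against control total RNA and 2 for degron against control polysomes. Genes called over the table went from 102 to 802 in day 3 control P-bodies, from 1095 to 4178 in Ago2 KO P-bodies and from 509 to 82 for DDX6 total RNA.

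With each library left out, counts ranged from 0 to 5 in naive, 3 to 5 in primed, 5 to 6 in MEF, 1 to 5 in day 3 control, 1 to 8 in Nudt21 and 0 to 1 in Ago2 KO P-bodies. Between cytoplasms they ranged from 2 to 6 for primed against naive, 7 to 9 for MEF against naive, 7 to 10 for day 3 against MEF and 4 to 6 for Nudt21 against control. For enrichment differences they were 0 to 6, 3 to 6, 2 to 4 and 0 to 3 in the same order. They were 1 to 3 for control polysomes, 2 to 3 for degron polysomes, 0 to 4 for DDX6 total RNA, 1 for DDX6 polysomes and 0 to 1 for the occupancy change. The log2 fold change of Jund between Nudt21 and control cytoplasm, which was not called, ranged from -0.0195 to 0.73.

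Over all genes, and apart from left-out libraries, other counts that moved by more than 1.5 times were those of primed P-bodies (8209, 5128 with all groups), day 3 control P-bodies (102, with 2105 by DESeq2, 202 by filterByExpr, 1940 with no filter and 3308 with all groups), Nudt21 P-bodies (3501, 2100 with all groups) and Ago2 KO P-bodies (1095, with 1731 by DESeq2, 716 with its size factors and 2643 with no filter). They also included Nudt21 cytoplasm (7934, 4877 with all groups), the Nudt21 enrichment difference (2, with 26 by DESeq2, 62 with no filter and 1 with the block), DDX6 total RNA (509, with 832 by DESeq2, 863 with no filter and 1138 with all groups), DDX6 polysomes (666, with 1029 with no filter and 362 with all groups) and the occupancy change (0, with 4 by DESeq2, 16 with no filter and 6 with the block). With 1 library left out, all-gene counts ranged from 2056 to 10018 in naive P-bodies, 5595 to 9976 in MEF P-bodies, 82 to 8752 in day 3 control P-bodies, 1017 to 5729 in Nudt21 P-bodies and 446 to 5617 in Ago2 KO P-bodies. They ranged from 2242 to 9799 for primed against naive cytoplasm, 2293 to 7089 for primed against naive enrichment, 259 to 5546 for day 3 against MEF enrichment, 0 to 2185 for the Nudt21 enrichment difference, 6 to 3373 for DDX6 total RNA, 179 to 951 for DDX6 polysomes and 0 to 52 for the occupancy change, and moved by less than 1.5 times in the other 7 comparisons. Of 160 per-length levels, 72 moved by more than their SD with the median transcript length.

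Of 676 values of called results under all alternatives, 676 kept their direction and 559 their call. Of 1314 values of results not called in the main fit, 100 turned direction. The alternatives reuse the same libraries and are no independent support. Depth limits Fosb, Fosl1 and Fosl2 in ES cells, where a gene can have no read in a library.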
